A study of Mus musculus with 24 samples.

Results

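Early postconditioning is a set of short coronary occlusions begun just after blood flow has returned to the heart. Its RNA profile was compared with that of ischemia-reperfusion alone on 6 of the 24 spotted 2-colour arrays of the series. The 6 arrays were chosen by their labels, as those with ischemic-region RNA of hearts given cycles 1 min into reperfusion in channel 2. They are 3 replicate numbers, each hybridised in both dye orientations, so n = 3 after the orientations were averaged. The question, from the series' design text, is which transcripts differ between conditioned and unconditioned hearts.

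In the early postconditioning group (PostC), C57BL/6 mice under anesthesia had a coronary artery closed for 40 min and then reperfused for 60 min. Beginning 1 min after flow returned, the artery was closed and reopened in 3 cycles, for 1 min each way. Ischemia-reperfusion alone (IR) had the same occlusion and reperfusion without cycles. RNA of its ischemic region lay in channel 1 of every array. The other groups, each again 6 arrays with n = 3, were set against the same IR RNA. In preconditioning (PreC) the same cycles came 10 min before the occlusion, and in delayed postconditioning (Post30) they came 30 min after reperfusion. NonIschemic was the non-ischemic region of IR hearts. All groups carry the occlusion and the surgery, and no group without them was analysed here. The labels give neither age nor sex, nor whether a replicate number is a heart or a pool, so the spread behind the p-values is that of these samples alone and may be technical. They also do not say whether the IR RNA differed between replicate numbers. As far as it did not, a test of the ratio against 0 takes no account of variation among IR hearts.

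Ischemia stops oxygen supply to the muscle, and the return of blood adds injury of its own through calcium overload, oxidants and opening of the mitochondrial permeability transition pore. Postconditioning is known from animal hearts to limit infarct size when the cycles start at the onset of reperfusion, and much less when they start late. Preconditioning, given before the occlusion, is the older form of the same protection. Both are known to act through protein kinase signalling.

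The arrays held 16463 mouse probes, of which 16413 had values enough for a test and 50 did not. The files pair no probe with a gene, so results are given by probe ID and by classes of probes. The labelled tissue and its cell types could not be checked against marker genes for the same reason. Values are log2 ratios of PostC over IR after background correction and loess, which centres each array. A ratio can therefore show only unequal change among probes. The direction is likely and not settled, because all signs would turn if channels 1 and 2 were exchanged in the files. In bulk tissue, fewer cells of a type and less RNA per cell cannot be told apart.

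Against IR, no probe passed an adjusted p of 0.05 with limma and Benjamini-Hochberg adjustment. The count was 0 of 16413 (0%), and the smallest adjusted p was 0.0535. An unadjusted p under 0.05 was reached by 2230 probes (13.6%), of which 959 (5.84%) were higher and 1271 (7.74%) were lower in PostC. An adjusted p under 0.1 was reached by 197 probes (1.2%), made up of 60 higher (0.366%) and 137 lower (0.835%). The last probe inside that limit had an absolute log2 ratio of 0.30 and an adjusted p of 0.099, and the first outside had 0.20 and 0.101.

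The count at 0.05 depended on the processing. The replicate numbers pair PostC with PreC and Post30, and 32 probes passed once the number entered as a random block, with 7 higher and 25 lower in PostC. A fixed block gave 380, but its p-values for a ratio to IR are too small. Without background subtraction 44 passed, 5 higher and 39 lower. Median centring in place of loess gave 511, of which 10 were higher and 501 lower. It moved the split at an unadjusted p under 0.05 to 679 higher and 2115 lower. Unlike loess, it leaves in a trend of the ratio with signal, whose values are given at the end of this report. Leaving out replicate number 2 in every group gave 87, of which 38 were higher and 49 lower, and leaving out PostC replicate 2 alone gave 2.

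**Figure D1:**
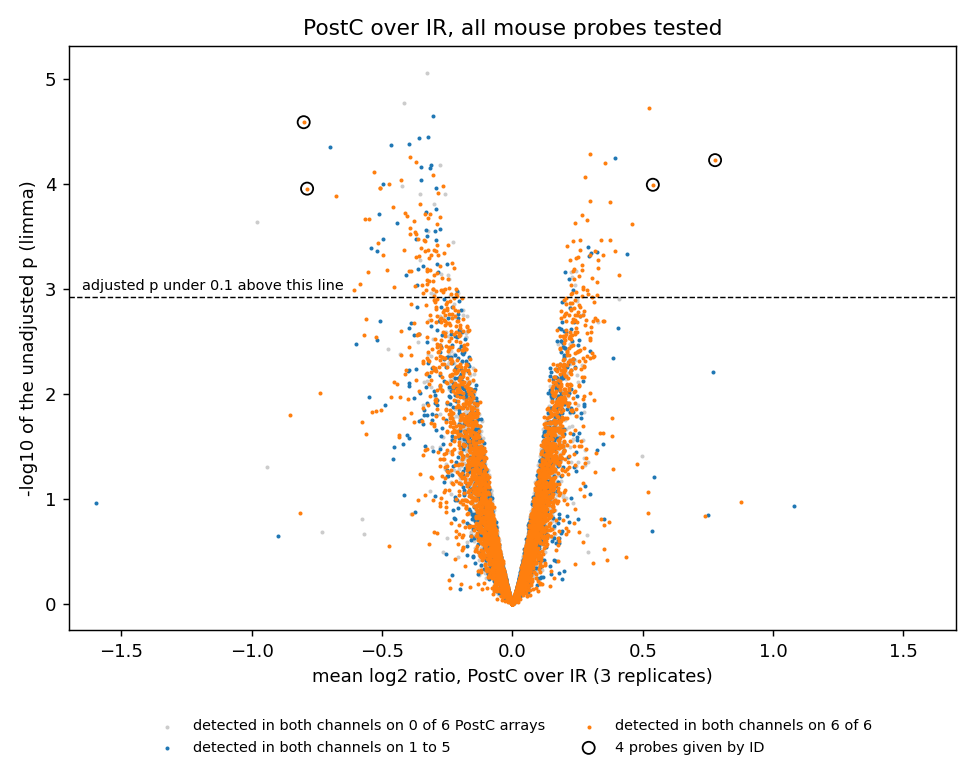
Mean log2 ratio of PostC over IR (x axis) against minus log10 of the unadjusted limma p (y axis) for each of the 16413 probes tested, coloured by the number of PostC arrays on which the probe was detected in both channels. The dashed line is the limit of the 197 probes with an adjusted p under 0.1, and circles mark the 4 probes given by ID.

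Differences from IR were more frequent among probes with measurable signal. A spot was called detected when its background-subtracted signal lay above the 95th percentile of the empty spots of that array and channel. Both channels met this on all 6 PostC arrays for 4340 of the tested probes (26.4%), and 25.9% of those had an unadjusted p under 0.05, beside 13.6% of all probes tested. Among 2554 probes detected on 1 to 5 arrays the share was 20%. Among 9519 probes detected on none it was 6.25%. The 4340 were split by mean signal into 4 classes of 1085 probes each, from class 1 (dimmest) to class 4 (brightest). The share was 19.1% in class 1, 25.5% in class 2, 26.8% in class 3 and 32.1% in class 4. In class 4, 174 of these probes were higher and 174 were lower in PostC, while in class 2, 108 were higher and 169 lower. These shares are descriptions, as probes of one array are not independent.

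**Figure D2:**
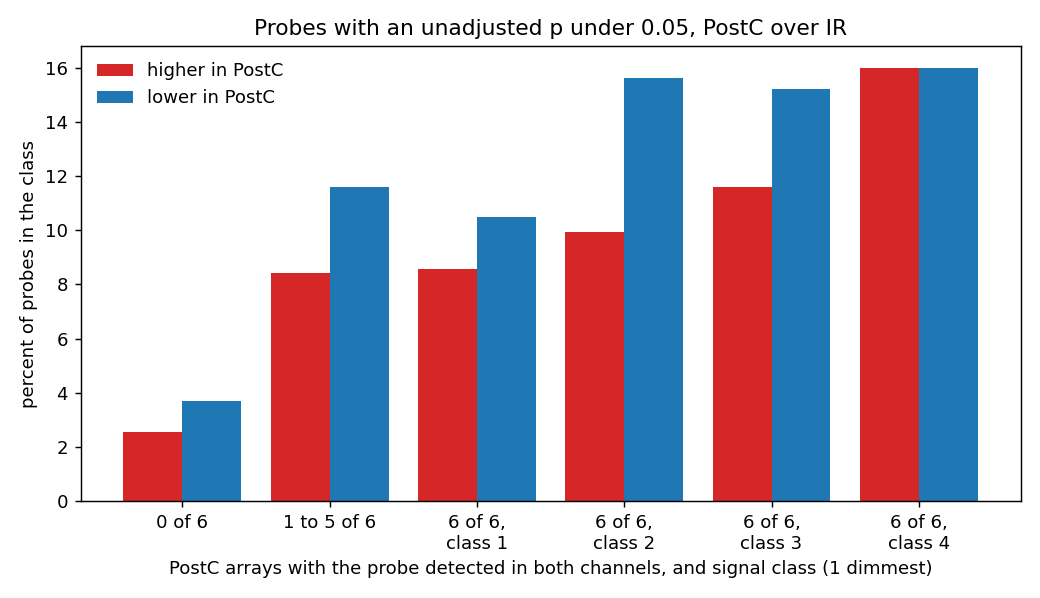
Percent of probes in each class (y axis) with an unadjusted p under 0.05, higher (red) or lower (blue) in PostC than in IR. Classes on the x axis are the number of PostC arrays with detection in both channels, with the probes detected on 6 of 6 split into 4 signal classes. The bars run from 2.55% higher and 3.7% lower at 0 arrays to 16% higher and 16% lower in signal class 4.

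The differences were small. For the 4340 detected probes the median absolute log2 ratio was 0.086, and the median 95% interval reached 0.14 to either side. The interval lay within 1.5-fold in both directions for 4213 of them, or 97.1%. The mean ratio went past 1.5-fold for 10, of which 3 were higher and 7 lower in PostC, and the means ran from -0.85 to 0.88. The SD over the 3 replicates had a median of 0.11. The sign was the same in all 3 replicates for 1920 detected probes (44.2%), 955 higher and 965 lower, and the same on all 6 arrays for 793 (18.3%), 357 higher and 436 lower.

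Among the 197 probes with an adjusted p under 0.1, which that test chose and which are described here, the 60 higher ones had a median log2 ratio of 0.28 and the 137 lower ones -0.33. These are 1.22-fold and 1.26-fold. The smallest absolute ratio was 0.20 among the higher ones and 0.21 among the lower ones, and the largest were 0.78 and 0.98. The 0.98 belonged to a probe detected in both channels on 0 of the 6 PostC arrays, so it holds at most as a bound. The lower ones had medians of -0.33, -0.32 and -0.34 in PostC replicates 1, 2 and 3, and the higher ones 0.26, 0.26 and 0.29. Both channels were detected on all 6 PostC arrays for 47 of the 60 and 86 of the 137, and on none for 4 and 18. In the other groups, whose ratios share the IR channel, the higher ones had medians of 0.05 in PreC, 0.09 in Post30 and 0.11 in NonIschemic. The lower ones had medians of -0.03 in PreC, -0.13 in Post30 and -0.18 in NonIschemic.

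Of the 197, 123 also had the same sign on all 6 arrays and detection in both channels on all 6, and 40 of these were higher and 83 lower in PostC. The highest 2 and the lowest 2 mean ratios of the 123 are given here by ID. As they were chosen for extreme PostC values, their levels in the other groups are a description with no test. With the planned offset of 50 all 4 means lay nearer to 0, at 0.15 for Mm::M200007299, 0.28 for Mm::M200001008, -0.62 for Mm::M200002908 and -0.21 for Mm::M200016016. Signals are background-subtracted, in the units of the scanner and before dye normalization.

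Mm::M200007299 had log2 ratios over IR of 0.82, 0.49 and 1.03 in PostC replicates 1, 2 and 3, and of 0.31 to 1.06 on the 6 arrays. All 6 lay above 0. Its signal was 9.37 to 14.6 in the PostC channel, against 3.67 to 12.7 in the IR channel, with a detection limit of 0.834 to 3.02 over both. The mean was 0.78 (SE 0.14, 1.71-fold higher in PostC), with an adjusted p of 0.0535 from limma. Other groups' means were 0.52 ± 0.42 in PreC, 0.09 ± 0.34 in Post30 and 0.13 ± 0.08 in NonIschemic (SD, n = 3 each). PreC replicates, at 0.99, 0.16 and 0.42, overlapped those of PostC. Post30 replicates, at -0.07, -0.14 and 0.48, all lay below the lowest PostC replicate, as did those of NonIschemic at 0.12, 0.21 and 0.05. For Post30 this was by a narrow margin, 0.481 against 0.488. Single arrays of the 2 groups overlapped, reaching up to 0.50 in Post30 and down to 0.31 in PostC.

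Mm::M200001008 had log2 ratios over IR of 0.38, 0.66 and 0.58 in the PostC replicates and was above 0 on 6 of 6 arrays. Its signal was 35.2 to 66.8 in the PostC channel, against 27.5 to 55.8 in the IR channel. It had the highest mean among the detected probes of signal class 4, 0.54 (SE 0.10, 1.45-fold higher in PostC, limma adjusted p 0.0535). Post30 replicates were of like size, at 0.31, 0.51 and 0.65, and overlapped those of PostC. PreC replicates, at -0.18, 0.01 and -0.21, all lay below the lowest PostC replicate. In PreC replicate 2 the spot of the Cy5 orientation was not above background in either channel, and the Cy3 orientation alone gave -0.006. NonIschemic replicates were at -0.22, 0.33 and -0.32.

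Mm::M200002908 had log2 ratios over IR of -0.83, -0.87 and -0.70 in the PostC replicates, the narrowest spread of the 4 probes, and lay between -0.95 and -0.63 on the 6 arrays. It was a bright probe, with a signal of 135 to 302 in the PostC channel, against 174 to 655 in the IR channel. Its mean of -0.80 (SE 0.13, 1.74-fold lower in PostC, limma adjusted p 0.0535) was the lowest of signal class 4. In Post30 the replicates were -0.91, -0.86 and -1.02, and overlapped those of PostC. In PreC they were -0.49, 0.12 and 0.52, all above the highest PostC replicate. In PreC replicate 2 the Cy5 orientation had weak signals, 61.8 in the PreC channel and 54.5 in the IR channel. The Cy3 orientation had 329 and 475, and alone gave 0.21. NonIschemic replicates gave -0.20, -0.68 and -0.57.

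Mm::M200016016 had log2 ratios over IR of -0.46, -0.98 and -0.92 in the PostC replicates and was below 0 on 6 of 6 arrays. Signal in the PostC channel was 7.05 to 18, against 14.6 to 29.9 in the IR channel. The mean was -0.79 (SE 0.15, 1.73-fold lower in PostC, limma adjusted p 0.0535). PreC replicates, at 0.08, -0.15 and -0.12, all lay above those of PostC. Post30, at -0.19, -0.35 and -0.56, and NonIschemic, at 0.04, -1.06 and -0.37, overlapped PostC.

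**Figure D3:**
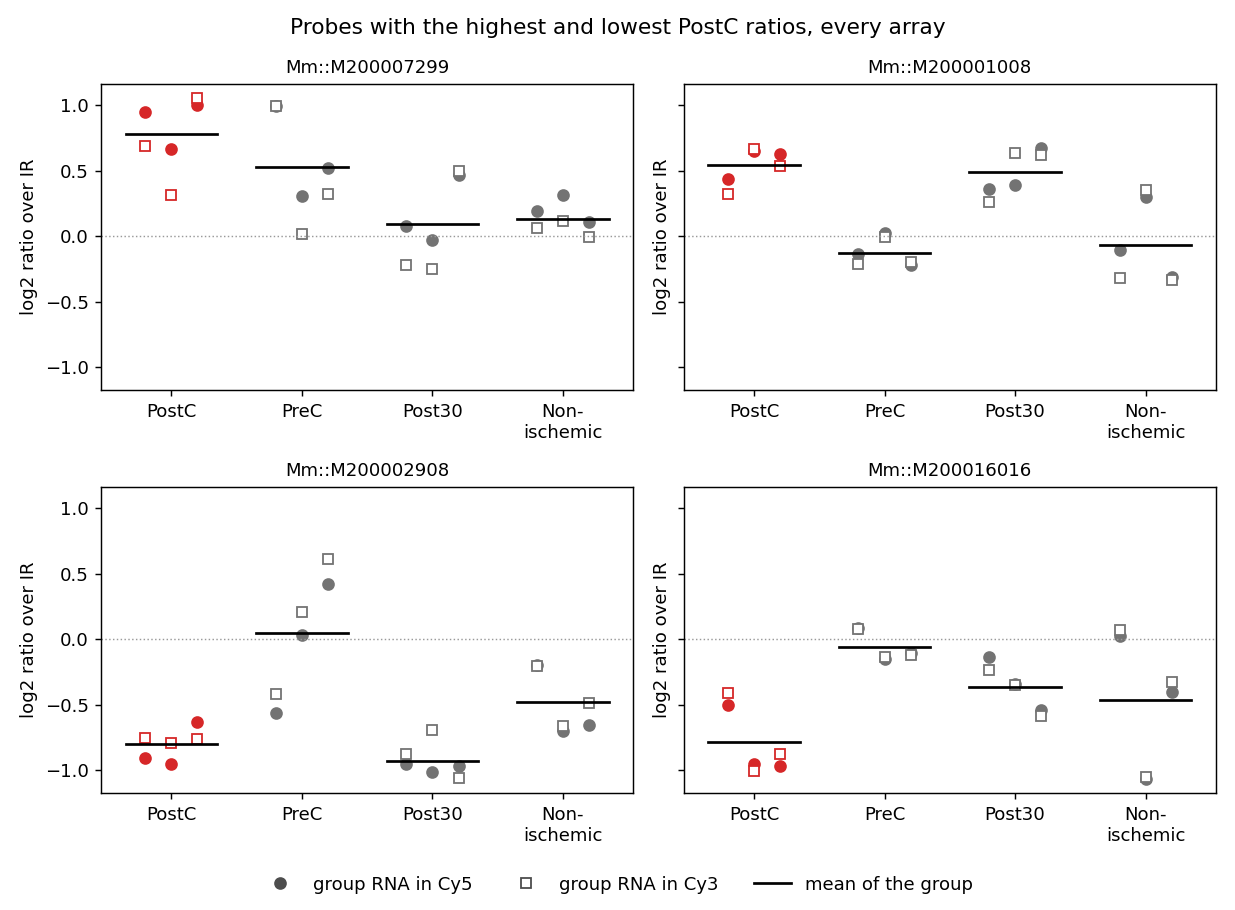
Log2 ratio over IR (y axis) of the 4 probes given by ID on each of the 24 arrays, by group (x axis), with PostC in red. Filled circles have the group's RNA in Cy5, open squares in Cy3, replicates 1 to 3 run from left to right within a group, and the black line is the group mean. For Mm::M200001008 and Mm::M200002908 the Post30 arrays lie near the PostC arrays, and the PreC arrays do not overlap those of PostC. For Mm::M200002908, however, PreC replicate 1, at -0.42 and -0.56, comes close to the PostC array at -0.63.

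The same cycles given at different times were then set against each other directly. Between PostC and PreC, with limma, 0 of 16378 probes passed at 0.05 (0%, smallest adjusted p 0.566), while 1340 (8.18%) reached an unadjusted p under 0.05, with 575 (3.51%) higher and 765 (4.67%) lower in PostC. Among detected probes the median 95% interval of this difference reached 0.20 to either side, and for 4025 of 4332 (92.9%) it lay within 1.5-fold. PostC minus PreC went past 1.5-fold for 26 of the 4332.

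Between PostC and Post30, 1 of 16371 probes passed at 0.05 with limma (0.00611%), and 2 passed at 0.1 (0.0122%), both higher in PostC (0.0122%). An unadjusted p under 0.05 was reached by 759 (4.64%), with 379 (2.32%) higher and 380 (2.32%) lower in PostC. The log2 ratios over IR of that 1 probe were 0.26, 0.12 and 0.09 in PostC and -0.52, -0.43 and -0.59 in Post30. The groups did not overlap, but this test chose the probe, so its values by replicate are a description. PostC minus Post30 was 0.67 (SE 0.085, adjusted p 0.0239). Its mean was -0.25 in PreC and -0.16 in NonIschemic, so that PostC was the only one of the 4 group means above IR. Detection held in both channels on 6 of 6 PostC arrays. A fixed block on the replicate number gave 3 probes and a random block 2, all higher in PostC. The count was 0 without any 1 of the PostC or Post30 replicates, although the difference of this probe then stayed between 0.62 and 0.71. It was also 0 with median centring and with an offset of 50.

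Between PostC and NonIschemic, 0 of 16384 probes passed with limma at 0.05 (0%, smallest adjusted p 0.567), while 1026 (6.26%) reached an unadjusted p under 0.05, with 483 (2.95%) higher and 543 (3.31%) lower in PostC. PostC minus NonIschemic went past 1.5-fold for 40 of 4335 detected probes, and PostC minus Post30 for 10 of 4331. Both had a median 95% interval of 0.20 to either side, wider than the 0.14 of the ratio to IR. The counts are therefore not comparable with the 10 of 4340 against IR. Region and conditioning differ together in this comparison and cannot be told apart.

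The strongest single values belonged to single replicates. In at least 1 PostC replicate, 31 probes went past 2-fold in the same direction in both dye orientations. They did so in 1 replicate for 26 probes, in 2 for 5 and in 3 for 0. Of the 31, 3 went past 2-fold in opposite directions in different replicates. Sign changes without that size were more frequent: all 7 probes high in replicate 3 lay below 0 in replicate 2. Both channels were detected on all 6 PostC arrays for 19 of the 31, and ratios with a spot at background hold only as bounds. Replicate 1 held 7 higher and 4 lower ones, replicate 2 held 1 higher and 17 lower, and replicate 3 held 7 higher and 0 lower. The 17 probes low in replicate 2 had a median log2 ratio of -1.55 there, against 0.01 in replicate 1 and 0.14 in replicate 3. The same 17 had medians of -0.14, -0.89 and -0.99 in PreC replicates 1, 2 and 3, of -0.04, -1.23 and -0.06 in Post30, and of -0.45, -2.27 and -1.23 in NonIschemic. Past 2-fold lower were 3, 7 and 8 of the 17 in PreC replicates 1, 2 and 3, 0, 11 and 0 in Post30, and 1, 16 and 10 in NonIschemic. The 7 probes high in PostC replicate 1 had medians of 1.22, 0.98 and -0.12 in PostC replicates 1, 2 and 3. Their medians were 2.23, 2.36 and -0.17 in PreC, 2.23, -0.19 and -0.06 in Post30, and 0.21, -0.12 and 0.26 in NonIschemic. High medians thus stood in number 1 and number 2, in different groups. The 7 high in PostC replicate 3 had medians of 0.10, -0.86 and 1.32 in PostC. Their medians were -1.05, -0.77 and -0.99 in PreC, -0.15, -0.92 and 0.96 in Post30, and -0.58, -1.47 and -0.84 in NonIschemic, so number 3 was high in PostC and Post30 and low in PreC and NonIschemic. These probes were chosen by their values and are a description.

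**Figure D4:**
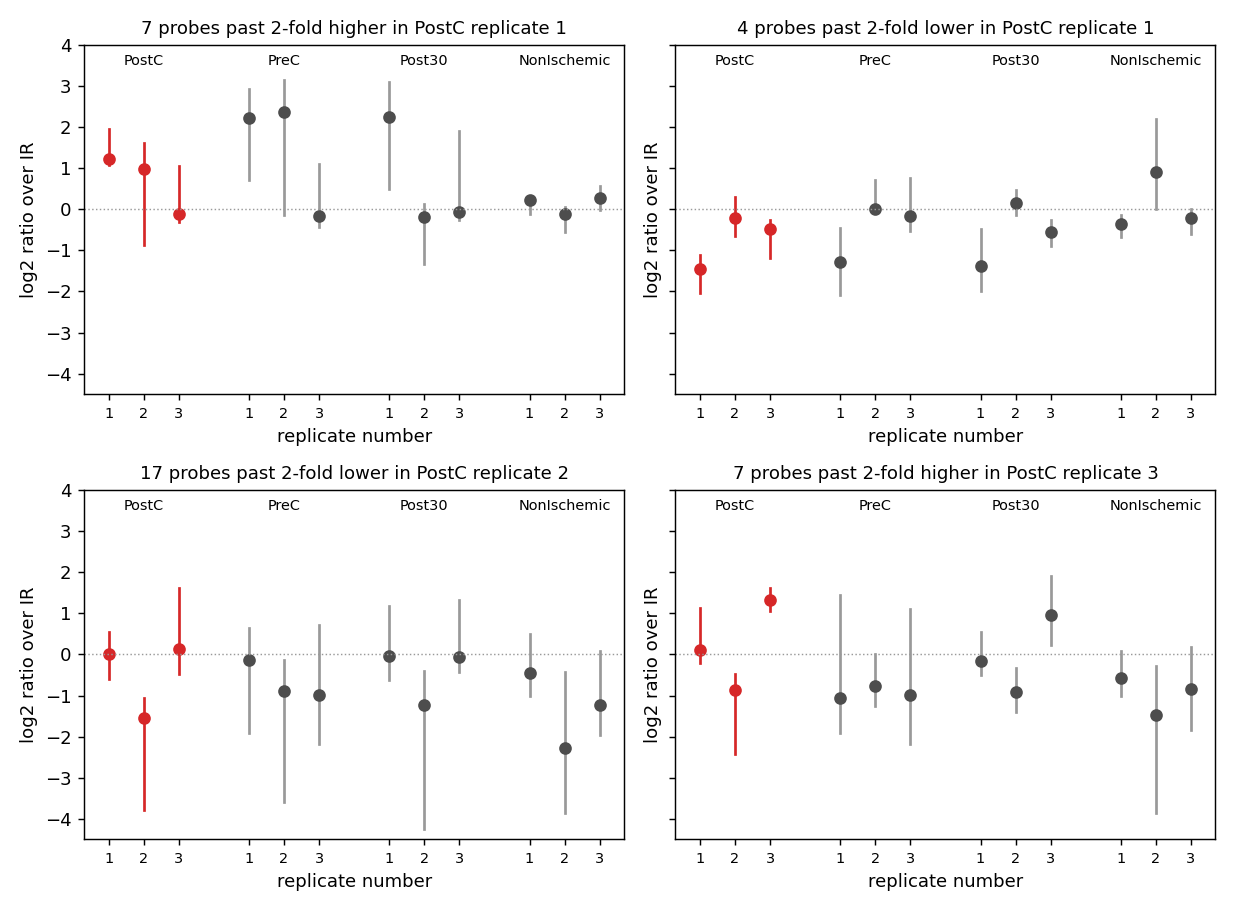
Median (point) and range (line) of log2 ratios over IR (y axis) in each replicate of each group (x axis), for probes chosen as past 2-fold in both dye orientations of 1 PostC replicate. The 17 probes low in PostC replicate 2 (lower left) have their lowest medians of Post30 and of NonIschemic in replicate 2 as well, and that of PreC in replicate 3.

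The only mean ratios past 2-fold rested on such probes. One averaged 1.08 ± 1.23 over the PostC replicates, with 1.95, 1.61 and -0.32, and the other -1.60 ± 1.90, with -0.60, -3.79 and -0.40 (SD, n = 3 each). Neither passed with limma (adjusted p 0.517 and 0.505). The first was detected in both channels on 4 of the 6 PostC arrays. The second was detected in the PostC channel on 1 of 6 arrays and in the IR channel on 4, so that ratios such as -3.79 are bounds and not measured sizes. The second was also low in replicate 2 of the other groups, at -3.59 in PreC, -4.24 in Post30 and -3.72 in NonIschemic, and lay between -0.61 and 0.55 in their other replicates.

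A set of 12 probes was printed on 17 spots each, which gives a direct measure of error within an array. Their ratios had a median SD over the spots of an array of 0.13, which makes a median SE of 0.03 for the mean of 17 spots. The median SD over PostC replicates was 0.10, larger than that SE. The mean PostC ratios of the 12 ran from -0.34 to 0.10, with 4 higher and 8 lower, and 5 had an unadjusted p under 0.05. Both channels were detected on all 6 PostC arrays for 11 of the 12, and the share at that p was 25.9% among all probes so detected. The widest over replicates had 0.10, -2.43 and 1.61 in PostC, an SD of 2.04. Its dye orientations gave -2.34 and -2.53 in replicate 2, and 1.71 and 1.51 in replicate 3. Its replicates were -1.90, -1.27 and -2.18 in PreC, -0.31, -1.41 and 1.26 in Post30, and -1.02, -3.87 and -1.84 in NonIschemic.

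Replicates agreed in part. Over detected probes, which are not independent, PostC arrays of the same replicate and opposite dyes correlated with r from 0.48 to 0.59. Arrays of different replicates with the same dye gave 0.21 to 0.52, and with opposite dyes -0.02 to 0.31. After averaging the dyes, the correlation was 0.19 between replicates 1 and 2, 0.42 between 1 and 3, and 0.23 between 2 and 3.

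Measures of the arrays themselves differed between the PostC and IR channels. On each of the 6 arrays fewer mouse probes were detected in the PostC channel (29.5% to 40.7%) than in the IR channel (36% to 45.5%). The mean difference was -7.32 ± 2.02 percentage points (SD, n = 3), against -4.89 in PreC, -5.81 in Post30 and -3.80 in NonIschemic. Two-sided exact permutation tests gave p of 0.2, 0.4 and 0.2 for PostC against those groups. Of all 16463 mouse probes, 5403 (32.8%) were detected on 6 of 6 arrays in the IR channel and 4384 (26.6%) in the PostC channel. Beside this general difference, 5 (0.0304%) were detected on 6 of 6 arrays in the IR channel and on 0 of 6 in the PostC channel, and 0 the other way round. The log2 ratios of the 5 had a median of -0.12 and ran from -0.24 to -0.0024. The control probes 1DR to 6DR, whose targets are not given in the sources used here, had a mean log2 ratio of 0.75 ± 0.05 in PostC (SD, n = 3). They had 0.62 in Post30, -0.04 in PreC and 0.06 in NonIschemic. The PostC replicates, at 0.71, 0.81 and 0.73, lay above all PreC and NonIschemic replicates and overlapped Post30. Exact two-sided p was 0.1 against PreC and against NonIschemic, the smallest that 3 against 3 allows, and 0.2 against Post30. Adjusted over the 6 tests of this paragraph no p was under 0.24. The part of detection and of these controls in the ratios of the mouse probes was not tested.

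**Figure D5:**
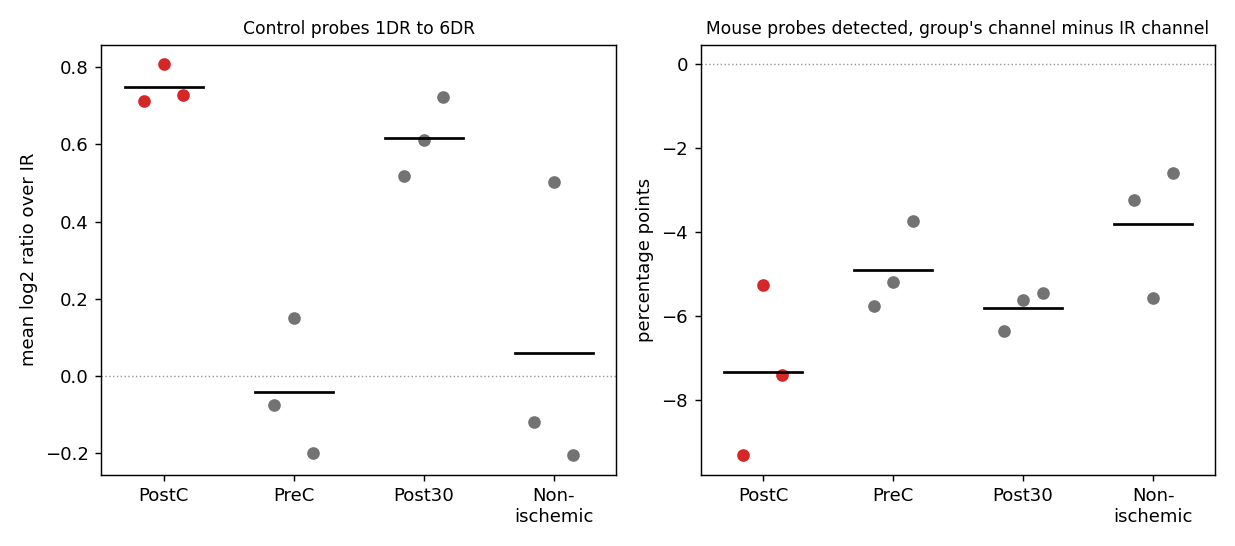
Mean log2 ratio over IR of the control probes 1DR to 6DR (left) and the difference in detected mouse probes between the group's channel and the IR channel, in percentage points (right), for each of the 3 replicates of a group, with the group mean as a black line. PostC controls lie between 0.71 and 0.81, and detection is lower in the group's channel in all 12 replicates.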

How the data were processed

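Each deposited array file gives a foreground and a local background intensity in 2 channels for 17664 spots, per the file headers. The deposited value table holds the authors' log2 ratios of IR over the group. Its sign was turned for use as an alternative, and the medians of its PostC columns were -0.0081 to 0.0006. How it was normalized is not known for certain, but it gave almost the same results as loess without background subtraction. Each gave 44 calls against IR, 5 higher and 39 lower, and Mm::M200007299 was at 0.858 and 0.859. These 2 alternatives are therefore not separate support for each other. The sources used here do not name the image analysis software.

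The normexp background correction and a loess fit for each array were run in limma 3.58.1 (R 4.3.3), with 1009 control and empty spots left out of the tests and given weight 0. The planned offset of 50 is meant for scanners reaching 65535, so it was scaled to 1.03 for a highest intensity of 1356. This was decided after the intensity range was seen. Offsets pull the ratios of dim spots towards 0. From 5 to 24 spots per PostC array were dropped for a quality mark. The number of arrays limits the precision.

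File channels went with the RNA, whichever dye it carried: in PostC the control probes 1RC and 3RC averaged -1.58 and 2RC and 4RC 2.91, with the same sign on 6 of 6 arrays. Dye orientations were averaged per replicate number. Group means over 12 extract pairs were fitted with lmFit and eBayes (8 residual degrees of freedom), with Benjamini-Hochberg adjustment over all mouse probes. All 4 groups share one estimate of the spread. The fit was tested on simulated data with independent noise. They held no deviation shared by same-numbered samples or through the IR RNA, so that test does not cover its effect. The gene table used (assembly GRCm38.p6) held 0 of the probe IDs, so gene and marker lists were not used.

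Deviations of same-numbered samples from their group means correlated with r of 0.22 to 0.25 between PostC and PreC and 0.23 to 0.40 between PostC and Post30. With NonIschemic they gave 0.07 to 0.25. No correlation between different numbers is set beside these values, and the random block estimated a correlation of 0.08. A pairing by number is therefore possible and not established. A fixed block removes a shared deviation from the residual but not from a group mean, so its p-values for a ratio to IR are too small.

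The members, the alternatives and the rule for probes given by ID were chosen with earlier results of these data known. That rule took the 2 highest and 2 lowest mean PostC ratios among probes with an adjusted p under 0.1, one sign on all 6 PostC arrays and detection in both channels on all 6.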

Additional observations from a re-analysis of the deposited data

Results flagged for a closer look

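Outside the mouse probes, the controls 1DR to 6DR had a mean log2 ratio of 0.75 in PostC over IR, above the 0.06 of NonIschemic and the -0.04 of PreC. The replicates of these groups did not overlap with PostC, and the exact two-sided p was 0.1 for each, the smallest that 3 against 3 allows. The shift was not particular to PostC. Post30 had a mean of 0.62, and its replicates overlapped those of PostC (exact two-sided p 0.2). Adjusted over the 6 permutation tests of controls and detection, no p was under 0.24.

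The difference between PostC and Post30 was past the threshold for 1 probe, which was 0.67 higher on the log2 scale in PostC (limma, adjusted p 0.0239), with PostC above IR and Post30 below IR in 3 of 3 replicates each. Without any 1 of these 6 replicates no probe passed, while the difference stayed between 0.62 and 0.71. As the probe was chosen by this test, its signs and the range of its difference are a description.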

How the results depend on the processing

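For PostC against IR, where 0 probes passed, no background subtraction gave 44 and the authors' deposited values 44. In each, 16 were among the 197 with an adjusted p under 0.1. The deposited values gave almost the same results as no background subtraction in every comparison, so these 2 count as 1 alternative. Median centring gave 511 (130 of the 197), a fixed replicate block 380 (187 of the 197) and a random replicate block 32 (all among the 197, estimated correlation 0.08). Of the 511, 402 were detected in both channels on all 6 PostC arrays. Under median centring, signal class 4 had medians of -0.28, -0.12 and -0.13 in PostC replicates 1, 2 and 3. Its medians were -0.19, -0.25 and -0.18 in PreC, -0.55, 0.05 and -0.19 in Post30, and -0.09, 0.11 and -0.16 in NonIschemic. Probes detected in both channels on no PostC array had 0.05, 0.04 and 0.04 in PostC. The part of this trend in the 511 was not tested. The Cy5 orientation alone gave 80 and the Cy3 orientation alone 25. A single orientation keeps any dye effect of a probe, which averaging the 2 is meant to cancel. The PostC arrays alone gave 2, and leaving out replicates 0 to 87. The count was 0 with an offset of 50 and with plain subtraction. Scaling to the control probes 1DR to 6DR lowered every PostC mean by 0.75 and gave 16399 calls, 16398 of them lower. It also gave 16311 against PreC and 16106 against NonIschemic, and turned Mm::M200001008 to -0.21. The other 3 probes given by ID kept their sign in every alternative run, with Mm::M200007299 at 0.03 under control scaling. An offset of 50 gave 0.15 for Mm::M200007299, 0.28 for Mm::M200001008, -0.62 for Mm::M200002908 and -0.21 for Mm::M200016016. The share with an unadjusted p under 0.05, 13.6%, was 23.4% among probes detected on at least 4 PostC arrays, 99.9% under control scaling, and 8.7% to 12.9% when replicates were left out.

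Against PreC, no background subtraction and the authors' deposited values each gave 1 probe, and leaving out replicates gave 0 to 1. Against Post30, where 1 passed, no background subtraction gave 2, as did the authors' deposited values and fits with the detection filter or a random replicate block, and a fixed replicate block gave 3. There 0 passed with an offset of 50, plain subtraction, median centring, either dye orientation alone or the compared groups alone, and 0 whichever replicate was left out. Against NonIschemic, no background subtraction and the authors' deposited values each gave 1, 2 passed with a fixed replicate block, and 0 to 3 when replicates were left out. The causes were not tested. Of the 16413 probes, 9519 were not detected in both channels on any PostC array. At least 1 channel of each such ratio was at background, so these ratios hold at most as bounds. Among the 5355 detected on at least 4, the count against IR was also 0 (limma, smallest adjusted p 0.0539).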
